A study of Mus musculus with 6 samples.

Results

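Malat1, Neat1 and Kcnq1ot1 are long noncoding RNAs (lncRNAs) that stay mainly in the nucleus. They were chosen by symbol, with earlier results of these data known. They are 3 of the 55376 genes in the count and FPKM (read pairs divided by gene length and library total) tables of RIP-seq for CPEB1. RIP-seq is the sequencing of RNA that is precipitated with a protein. All 3 had counts in every library and all 3 entered every test. The experiment used freshly isolated satellite cells (fiSCs), the muscle stem cells, from C57BL/6 mice aged 3 months, which were sorted as CD31-, CD45-, Sca1- and Vcam1+. No transgene, mutation or treatment is named for these mice or cells. Lysates were precipitated with an antibody to CPEB1 (CPEB1 IP) or with IgG, the nonspecific antibody control, or were left without precipitation (input). Each of the 3 groups had 2 libraries. The IgG values were deposited separately from those of CPEB1 IP and input. Whether all libraries were made and sequenced together is not stated in the study's methods. The comparison of CPEB1 IP with IgG asks which RNAs the antibody to CPEB1 recovered, and the comparisons with input show how each precipitate differed from the RNA of the lysate.

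Malat1 is a very abundant RNA of nuclear speckles, the bodies that hold splicing factors. Neat1 is the scaffold of paraspeckles, nuclear bodies that are built from its long form and proteins such as NONO and SFPQ, while its short form ends upstream at a poly(A) signal. Kcnq1ot1 is an imprinted RNA read from the strand opposite to Kcnq1, and it represses neighbouring genes on the same chromosome. The 3′ ends of Malat1 and of long Neat1 are cut by RNase P and closed by a triple helix instead of a poly(A) tail. CPEB1 binds the cytoplasmic polyadenylation element, a U-rich motif, in the 3′ untranslated regions of mRNAs, and controls the length of their poly(A) tails and their translation.

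In the files' annotation (mm10), Malat1 (ENSMUSG00000092341.3, lincRNA) lies at chr19:5795690-5802672 on the minus strand and is 6983 bases long. Neat1 (ENSMUSG00000092274.3, lincRNA) lies nearby at chr19:5824708-5845478, also on the minus strand, and is 20771 bases long. Kcnq1ot1 (ENSMUSG00000101609.2, antisense) lies at chr7:143203458-143296549 on the minus strand and spans 93092 bases, which made it number 4 in length among all genes in the tables. Each was annotated as 1 uninterrupted exon interval, so reads anywhere in the span could count as exonic. How reads shared with an overlapping gene were assigned is not given in the sources used here. Inside these spans lie 9 short annotated genes, namely Gm27694 and Gm37376 in Malat1, Gm27533, Gm27505 and Gm28006 in Neat1, and Gm27395, Gm27389, Gm27803 and Gm27539 in Kcnq1ot1, and each was at 0 in all 6 libraries. Kcnq1, the potassium channel gene whose intron holds Kcnq1ot1, had between 0 and 4 counts per library over 4093 exonic bases. The library kit does not mark strand, so reads from either strand of the Kcnq1ot1 span cannot be told apart.

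The letters below show, for each RNA, the match to the polyadenylation element nearest the 3′ end of the annotated transcript, since this is the motif CPEB1 is known to read. Capitals mark the match to TTTTAT or TTTTAAT, and sequences are from the GENCODE M21 transcripts on the strand of the RNA (minus strand, mm10).
Malat1, chr19:5795702-5795731: tgaatactttgaTTTTATgaaataaaaact
Neat1, chr19:5826532-5826561: cacacacagagtTTTTATtgcagtgaactg
Kcnq1ot1, chr7:143203692-143203721: tcttaattgatTTTTAATttaattctactg
The match ended 24 bases before the annotated 3′ end in Malat1, 246 in Kcnq1ot1 and 1836 in Neat1. Over its length Malat1 held 5 matches to TTTTAT and 1 to TTTTAAT, Neat1 13 and 2, and Kcnq1ot1 51 and 24. This came to 0.859 matches per kb in Malat1, 0.722 in Neat1 and 0.806 in Kcnq1ot1, against a median of 0.522 over the transcripts of 13460 tested genes. Of all those transcripts 71.5% held at least 1 match, and of the 2159 that were 6000 bases or longer 93.3% did, with a median of 0.709 per kb. The search used the RNA strand only and no TTTTAAT contains a TTTTAT. A match is a string of letters and not a measured binding site.

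The libraries were primed with oligo-dT, so the longest run of A in each transcript is shown as well, with the run in capitals.
Malat1, chr19:5795979-5796008: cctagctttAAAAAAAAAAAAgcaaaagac
Neat1, chr19:5832893-5832922: ggaaccattagAAAAAAAcgttaaatcatt
Kcnq1ot1, chr7:143226930-143226959: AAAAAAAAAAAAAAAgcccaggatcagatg
The run was 12 bases long in Malat1, 298 bases from the 3′ end, and 7 bases long in Neat1. In Kcnq1ot1 it was 41 bases long, of which the last 15 are shown, and longer than the longest run in 99.9% of the tested transcripts. Whether reverse transcription started at these runs was not tested.

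In all, 1284716 and 1359052 counts fell on genes in the IgG libraries, 2564323 and 4941653 in the CPEB1 IP libraries, and 3270067 and 3314547 in the input libraries. The total implied by the deposited FPKM values fell on genes for 39.1% to 39.5% in IgG, 69.5% to 69.9% in CPEB1 IP and 71.1% to 79.8% in input. The IgG libraries also reached the most genes, with a count on 32328 and 32381 genes against 20158 to 29465 in the others. The 32006 genes without an input count took 2.35% and 2.36% of the IgG counts but 0.395% and 0.376% of the CPEB1 IP counts. The 10 markers of satellite cells summed to between 11183 and 14666 CPM (counts scaled to library size) per library, of which Sdc4 alone gave 5231 to 7133. Against input 7 of them were lower and 1 higher in IgG, and 4 were lower and 1 higher in CPEB1 IP (edgeR). Cdh15 was at -3.08 and -2.22 on the log2 scale in these comparisons, Pax7 at -1.98 and -1.84, and Myod1 at 0.93 and 1.31. Of the markers of endothelial cells 3 of 4, and of myofibres 2 of 5, were higher than input in either precipitate. Of the markers of fibro-adipogenic cells Ly6a, Dcn and Lum were higher than input in either precipitate. Pdgfra was also called higher in IgG, on 9 and 11 counts against 4 and 2 in input, and was not tested in CPEB1 IP against input. Genes can enter a test through their IgG counts alone, so the call of Pdgfra is not read as a result. Across all tested genes, 21.4% were higher and 19.4% lower in IgG than in input. In CPEB1 IP against input these shares were 17% and 15.8%. The 5 markers of blood cells summed to 37.9 and 51.6 CPM in IgG, against 9.17 and 18.0 in CPEB1 IP and 11.3 and 22.4 in input, with Ptprc (CD45) listed at 0 in 1 CPEB1 IP library and 1 input library. The 4 markers of fibro-adipogenic cells summed to 88.7 and 91.3 CPM in input, against 320 and 339 in CPEB1 IP and 243 and 270 in IgG, most of it from Dcn. Each library was counted as a replicate, as labelled. In such bulk samples, fewer cells of a type and less RNA per cell cannot be told apart. Precipitates and input also differ by the precipitation itself, so these marker differences do not measure cell numbers. The part of these differences in the results below was not tested.

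Malat1 was among the most abundant RNAs of these cells. It had 3568 and 5515 counts in CPEB1 IP replicates 1 and 2. It had 3919 and 4463 in IgG and 7344 and 5586 in input. On the FPKM scale, which corrects for length, the input libraries stood at 229 and 193, the IgG libraries at 173 and 184, and the CPEB1 IP libraries at 139 and 111. It was within the top 0.960% of detected genes by FPKM in every library, and within the top 0.191% in both IgG libraries, where it ranked 63 and 61. Its share of all counts on genes was 0.139% (95% Clopper-Pearson interval 0.135 to 0.144) and 0.112% (0.109 to 0.115) in CPEB1 IP, 0.305% (0.296 to 0.315) and 0.328% (0.319 to 0.338) in IgG, and 0.225% (0.219 to 0.230) and 0.169% (0.164 to 0.173) in input. These intervals cover counting error only, and reads without molecular identifiers are not independent molecules.

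Neat1 had 2698 and 1457 counts in input. The IgG precipitates held 2171 and 2010, and the CPEB1 precipitates 1280 and 2384. By FPKM it was at 16.8 and 16.1 in CPEB1 IP, at 32.2 and 27.8 in IgG, and at 28.2 and 16.9 in input. The replicates of CPEB1 IP and IgG differed by 0.12 and 0.17 on the log2 scale and those of input by 0.85, and only 0.957% of the 5118 genes with a mean count of at least 100 differed more between those libraries. Kcnq1ot1 had 1007 and 640 counts in input. The IgG precipitates held 1231 and 1261, and the CPEB1 precipitates 924 and 1757. By FPKM it was at 2.71 and 2.65 in CPEB1 IP, at 4.07 and 3.90 in IgG, and at 2.35 and 1.66 in input. Its length thus gave it many counts at a low level per base. Its input libraries differed by 0.62 on the log2 scale, which 4.57% of those 5118 genes exceeded. The CPEB1 IP libraries of Malat1 differed by 0.38, which 5.26% of them exceeded. In every library the order of FPKM was Malat1, then Neat1, then Kcnq1ot1, and the ranges of the 3 genes over the 6 libraries did not overlap.

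**Figure D1:**
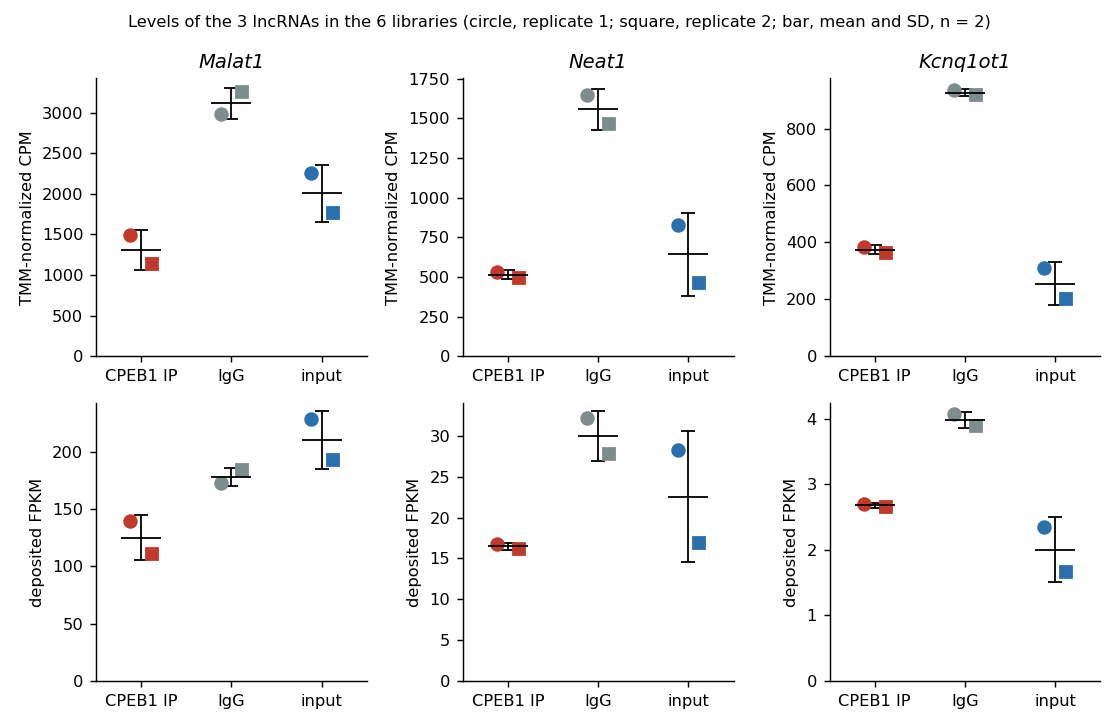
Levels of Malat1, Neat1 and Kcnq1ot1 in each library (circle, replicate 1; square, replicate 2), with the mean and SD of 2 libraries; the upper row is CPM after TMM scaling and the lower row the deposited FPKM, all axes from 0. CPEB1 IP lies below IgG for all 3 RNAs on both scales, while Malat1 is highest in IgG by CPM (2977 and 3251) and in input by FPKM (229 and 193).

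All 3 lncRNAs were lower in the CPEB1 IP than in the IgG control. After TMM scaling (trimmed mean of M-values, which sets the typical gene equal between libraries), Malat1 was at 1313 ± 246 CPM in CPEB1 IP and 3114 ± 194 in IgG (SD, n = 2 each). Neat1 was at 513 ± 29.1 CPM in CPEB1 IP and 1556 ± 131 in IgG. Kcnq1ot1 was at 374 ± 15.8 CPM in CPEB1 IP and 927 ± 11.7 in IgG. The libraries of the groups did not overlap for any of them, nor for Tug1 and Peg13, other nuclear lncRNAs that were not called. With 2 libraries against 2, such separation alone has an exact two-sided permutation p of 0.333. The share of all tested genes that separate in this way was not counted. By edgeR's quasi-likelihood test over 12124 genes, with p adjusted by Benjamini-Hochberg, Malat1 had a log2 fold change of -1.32 (SE 0.11, adjusted p = 5.91e-08). For Neat1 it was -1.67 (SE 0.10, edgeR adjusted p = 9.99e-11). For Kcnq1ot1 it was -1.38 (SE 0.09, edgeR adjusted p = 8.54e-10).

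Thus 3 of 3 were called lower, where 18.7% of all tested genes were and 33.4% were called in either direction. Each was called lower under every other scaling, filter, fit and left-out library tried. Only 8.87% of the tested genes had a lower fold change than Neat1, 11.6% than Kcnq1ot1 and 12.4% than Malat1. The size depended on the scaling. With the library totals implied by FPKM, which are larger than the counts on genes, the log2 fold changes were -0.51 for Malat1, -0.87 for Neat1 and -0.57 for Kcnq1ot1, and the median of all genes moved up by 0.81. Relative to that median, the fold changes lay between -1.51 and -1.13 for Malat1, -1.75 and -1.58 for Neat1, and -1.42 and -1.33 for Kcnq1ot1 over all settings. Of the genes called in this comparison 44.0% were higher in CPEB1 IP by the TMM scale, 93.3% by the FPKM totals, 72.7% by DESeq2 and 60.1% without a filter on low counts.

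On the deposited FPKM values, with a pseudocount of 1, the log2 ratio of CPEB1 IP to IgG was -0.31 and -0.72 for Malat1 in experiments 1 and 2. It was -0.90 and -0.75 for Neat1 and -0.45 and -0.42 for Kcnq1ot1. The median of 17387 genes with a mean FPKM above 0.5 was 0.38 and 0.41. None of the 3 lncRNAs exceeded a ratio of 2 in both experiments, as 10.7% of those genes did, and all 3 were below a ratio of 1 in both, as 17.1% did.

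**Figure D2:**
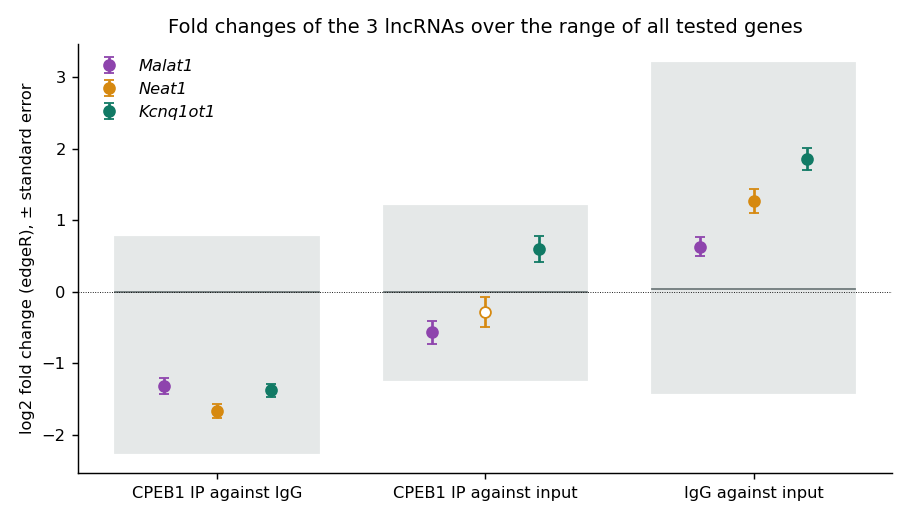
Log2 fold changes with standard errors (edgeR) of the 3 lncRNAs in the 3 comparisons; filled points have an adjusted p under 0.05, grey boxes run from the 5th to the 95th percentile of all tested genes and lines mark their medians. All 3 lie near -1.5 in CPEB1 IP against IgG (-1.32, -1.67 and -1.38) and spread from -0.57 to 0.60 in CPEB1 IP against input.

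Against input, the CPEB1 IP held less Malat1 and more Kcnq1ot1, and Neat1 did not pass the test. Malat1 in input was at 2254 and 1759 CPM, above both CPEB1 IP libraries at 1487 and 1138. Its log2 fold change was -0.57 (SE 0.16, edgeR adjusted p = 0.0170 over 12171 genes). Kcnq1ot1 in input was at 309 and 202 CPM, below both CPEB1 IP libraries at 385 and 363. Its log2 fold change was 0.60 (SE 0.18, edgeR adjusted p = 0.0212). Neat1 in input was at 828 and 459 CPM and enclosed the CPEB1 IP values of 533 and 492. Its log2 fold change was -0.28 (SE 0.21, edgeR adjusted p = 0.327). Thus 1 of 3 was called higher, where 17% of all tested genes were, and 1 of 3 lower, where 15.8% were. Calls in either direction covered 32.8% of the genes.

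Some of these calls changed when 1 library was left out, which leaves 1 library in a group. Malat1 and Kcnq1ot1 kept their directions. Without CPEB1 IP replicate 2, Malat1 was at -0.42 (edgeR adjusted p = 0.222). Without input replicate 1 Neat1 was at 0.19, and without input replicate 2 it was at -0.66. Each of these fits holds 1 input library, so neither carries the log2 difference of 0.85 between the input libraries of Neat1. Kcnq1ot1 was at 0.57 (edgeR adjusted p = 0.0960) without CPEB1 IP replicate 1 and at 0.60 (edgeR adjusted p = 0.0672) without replicate 2, and leaving out an input library gave 0.31 or 0.92. With the FPKM totals it was at 0.42 (edgeR adjusted p = 0.0695).

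The IgG precipitate held more of all 3 lncRNAs than input on the TMM scale. The log2 fold change was 0.63 for Malat1 (SE 0.13, edgeR adjusted p = 1.50e-04 over 12980 genes). For Neat1 it was 1.27 (SE 0.17, edgeR adjusted p = 1.02e-07). For Kcnq1ot1 it was 1.85 (SE 0.16, edgeR adjusted p = 3.57e-12), and 90.4% of the tested genes had a lower fold change. Thus 3 of 3 were called higher, where 21.4% of all tested genes were and 40.7% were called in either direction. With the FPKM totals, Kcnq1ot1 remained higher at 0.99, Neat1 was at 0.41 (edgeR adjusted p = 0.0523), and Malat1 turned to -0.24 (edgeR adjusted p = 0.167), while the median of all genes moved down by 0.88. By those totals 7.13% of the genes called in this comparison were higher in IgG, against 52.4% on the TMM scale. Without IgG replicate 2 Malat1 was at 0.55 (edgeR adjusted p = 0.0861). The comparisons share libraries, so their fold changes are not independent of each other.

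**Figure D3:**
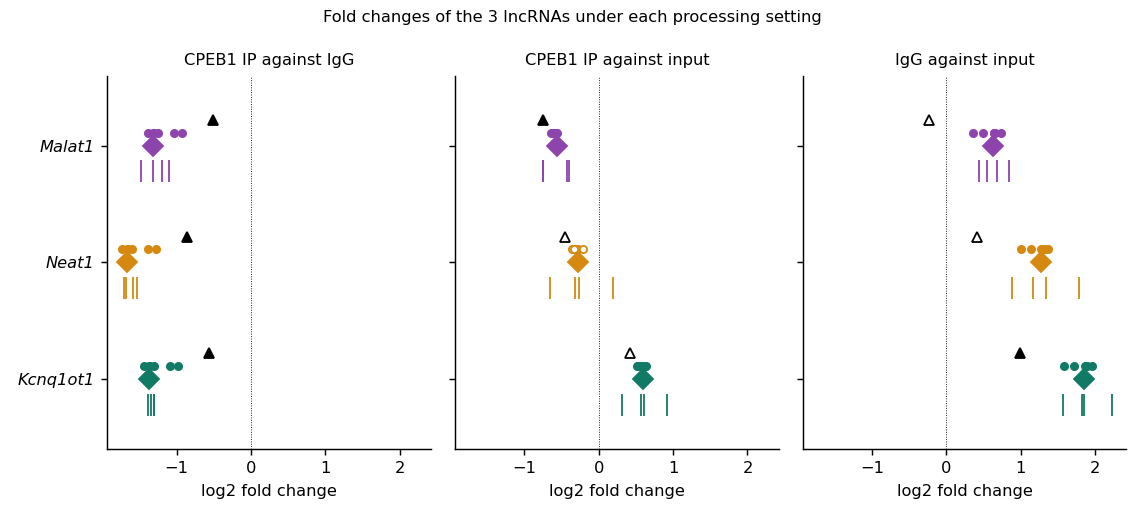
Log2 fold changes of the 3 lncRNAs in each comparison under every setting: diamonds, the reported fit; triangles, library totals implied by FPKM; circles, other scalings, filters and fits; ticks, 1 library left out; open triangles and circles have an adjusted p of 0.05 or more. Every symbol lies below 0 for CPEB1 IP against IgG, while Neat1 against input crosses 0 when input replicate 1 is left out (0.19) and Malat1 in IgG against input when FPKM totals are used (-0.24).

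Ratios between the lncRNAs within a library need no scaling, and they differed between input and precipitates. Malat1 had 7.29 and 8.73 counts for each Kcnq1ot1 count in input. The ratio was 3.18 and 3.54 in IgG and 3.86 and 3.14 in CPEB1 IP. Both precipitates therefore lay below input without overlap, by 2.38-fold in IgG and 2.29-fold in CPEB1 IP, and the precipitates overlapped each other. The ratio of Neat1 to Kcnq1ot1 was 2.68 and 2.28 in input, 1.76 and 1.59 in IgG, and 1.39 and 1.36 in CPEB1 IP, with no overlap between any groups. The ratio of Malat1 to Neat1 was 2.72 and 3.83 in input, 1.81 and 2.22 in IgG, and 2.79 and 2.31 in CPEB1 IP, where only the IgG libraries lay apart from the others. With 2 libraries against 2, an exact two-sided permutation test cannot give a p below 0.333, so these differences are described without a test.

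**Figure D4:**
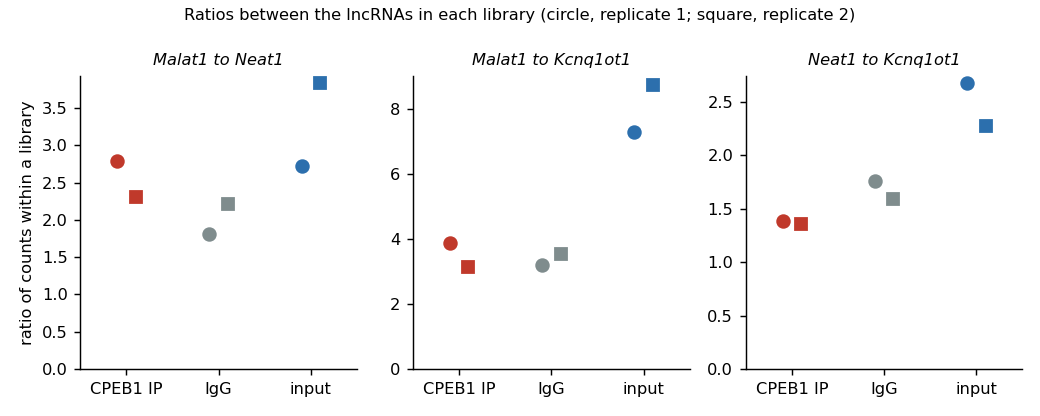
Ratio of counts between each pair of lncRNAs within each library, with replicate 1 as circles and replicate 2 as squares and axes from 0. The ratio of Malat1 to Kcnq1ot1 is 7.29 and 8.73 in input and between 3.14 and 3.86 in the 4 precipitates.

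The level of the lncRNAs per base was set beside that of genes absent from input. Over the 32006 genes with no input count, the summed counts over the summed length came, in FPKM units, to 0.236 and 0.235 in IgG and 0.0702 and 0.0665 in CPEB1 IP. The level of Kcnq1ot1 was 17.2 and 16.6 times that density in IgG and 38.5 and 39.9 times in CPEB1 IP. For Neat1 the multiples were 136 and 119 in IgG and 239 and 243 in CPEB1 IP. For Malat1 they were 731 and 783 in IgG and 1983 and 1670 in CPEB1 IP. The genes behind that density were chosen for having no input count, so the multiple in input is not defined. The source of this signal was not tested.

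Other nuclear lncRNAs were measured from a list of 18, of which 12 could be tested between CPEB1 IP and IgG. Of these 8 were lower in CPEB1 IP, 0 higher and 4 were not called, with a median log2 fold change of -0.89 against -0.01 over all tested genes, of which 18.7% were lower. At an unadjusted p under 0.05 none of the list was higher either, while DESeq2 called 1 higher. With the FPKM totals, 2 were called lower and 3 higher. Meg3, an imprinted lncRNA of the Dlk1 domain and the most abundant of the list, had 686 and 623 CPM in the CPEB1 IP libraries, 1326 and 1417 in IgG, and 2027 and 991 in input. Its log2 fold change against IgG was -1.14 (SE 0.09, edgeR adjusted p = 2.43e-08), and no setting turned its direction. Like Neat1, it differed between the input libraries by more than most genes, by 1.03 on the log2 scale, which 0.332% of the 5118 genes exceeded.

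Rian, read from the same imprinted domain, had 102 and 111 CPM in the CPEB1 IP libraries, 209 and 214 in IgG, and 310 and 306 in input. Its log2 fold change was -1.05 against IgG (SE 0.11, edgeR adjusted p = 1.75e-06) and -1.48 in CPEB1 IP against input (SE 0.13, edgeR adjusted p = 1.03e-05). Airn, the imprinted antisense RNA of Igf2r, had 102 and 105 CPM in the CPEB1 IP libraries, 195 and 178 in IgG, and 169 and 133 in input. Its log2 fold change was -0.92 against IgG (SE 0.12, edgeR adjusted p = 1.18e-05). Pvt1, the neighbour of Myc, was at -0.31 (SE 0.12, edgeR adjusted p = 0.0430) and turned to 0.49 with the FPKM totals and to 0.085 without a filter. Tug1 was at 0.29 (SE 0.16, edgeR adjusted p = 0.165).

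In CPEB1 IP against input 5 of the 12 nuclear lncRNAs were lower (Meg3, Rian, Mirg, Airn and Firre), where 15.8% of all tested genes were, and 2 were higher (Pvt1 and Snhg14), where 17% were. In IgG against input 3 of 13 were higher (Miat, Pvt1 and Snhg14) and 2 lower (Rian and Tug1), where 21.4% and 19.4% of all tested genes were. Miat had 0 counts in input and entered that test through IgG. The log2 fold change in IgG against input was 1.26 for Pvt1 (SE 0.19, edgeR adjusted p = 9.46e-07) and -0.54 for Rian (SE 0.15, edgeR adjusted p = 0.00381). The pattern of Kcnq1ot1, higher than input in both precipitates and highest in IgG, was also that of Pvt1 and Snhg14. Snhg1, from the list of cytoplasmic or exported lncRNAs below, showed it too. Pvt1, Snhg14 and Snhg1 were picked out after their values were seen. Pvt1 was at 1.06 in CPEB1 IP against input (SE 0.16, edgeR adjusted p = 3.09e-04), and its difference from IgG is the one that turned with the scaling. It rested on 955 counts in CPEB1 IP, 420 in IgG and 419 in input. Snhg14 was at -1.61 in CPEB1 IP against IgG (SE 0.28, edgeR adjusted p = 2.10e-04), at 1.47 against input (SE 0.37, edgeR adjusted p = 0.00849) and at 2.95 in IgG against input (SE 0.39, edgeR adjusted p = 1.32e-07). Snhg14 rested on 91 counts in CPEB1 IP, 101 in IgG and 31 in input.

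**Figure D5:**
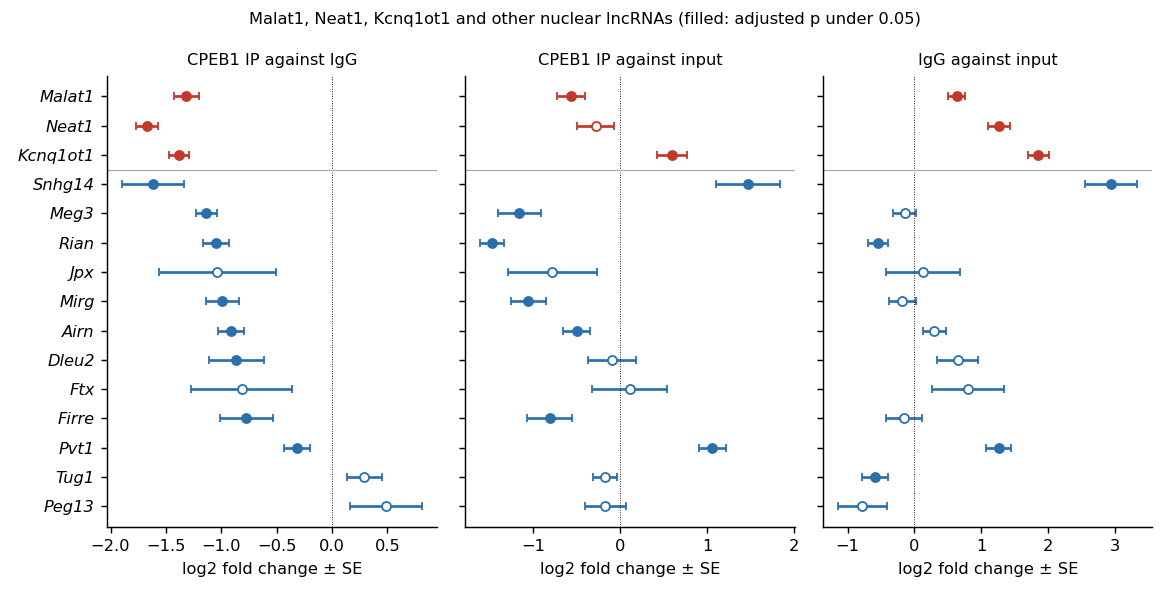
Log2 fold changes with standard errors (edgeR, TMM scale) of Malat1, Neat1 and Kcnq1ot1 (red, above the line) and the 12 other nuclear lncRNAs tested between CPEB1 IP and IgG (blue), in the 3 comparisons; filled points have an adjusted p under 0.05 and horizontal scales differ between panels. In CPEB1 IP against IgG 8 of 12 lie called below 0, and against input the list falls on both sides, from -1.48 for Rian to 1.47 for Snhg14.

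LncRNAs that act in the cytoplasm or are exported and degraded there were listed separately. Of 9 tested between CPEB1 IP and IgG 3 were lower (Gas5, Snhg1 and Snhg6) and 0 higher, where 18.7% and 14.7% of all tested genes were, with a median of -0.33. At an unadjusted p under 0.05 none was higher, and DESeq2 called 1 higher. Gas5, a host of small nucleolar RNAs, was at -0.67 (SE 0.10, edgeR adjusted p = 5.16e-05), and Snhg1, another such host, was at -0.80 (SE 0.13, edgeR adjusted p = 8.66e-05). With the FPKM totals no member of this list was called lower, 3 were called higher, and Gas5 turned to 0.13 and Snhg1 to 0.012. Whether this list differed from the nuclear lncRNAs was not tested. The small nuclear and nucleolar RNAs Rn7sk, Rmrp, Rpph1 and Terc summed to between 0.921 and 8.46 CPM, and none could be tested between CPEB1 IP and IgG.

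The mRNAs of the proteins that share nuclear bodies with Malat1 and Neat1 were tested as well. Of 16 mRNAs for paraspeckle proteins tested between CPEB1 IP and IgG, 4 were higher (Nono, Rbm14, Hnrnpk and Ewsr1) and 11 were not called, with a median of 0.12. Of all tested genes 14.7% were higher. Hnrnpk, needed to build paraspeckles, had 1342 and 1190 CPM in CPEB1 IP and 821 and 865 in IgG (log2 fold change 0.52, SE 0.09, edgeR adjusted p = 2.86e-04). Of 16 mRNAs for nuclear speckle proteins 2 were higher, 5 lower and 9 not called, with a median of -0.07, where 14.7% of all tested genes were higher and 18.7% lower. Son, a core speckle protein, was at -0.32 (SE 0.09, edgeR adjusted p = 0.00944) and turned to 0.49 with the FPKM totals and to 0.081 without a filter on low counts, and Srrm2, another core protein, was at 0.18 (SE 0.11, edgeR adjusted p = 0.217).

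Genes next to the lncRNAs on the chromosome are read against the same shares of all tested genes, 14.7% higher and 18.7% lower. In the Kcnq1 imprinted domain 8 of 16 genes were tested between CPEB1 IP and IgG. Of these 3 were higher (Nap1l4, Cd81 and Tssc4) and 2 lower (Trpm5 and Tnfrsf22). Trpm5 and Tnfrsf22 were also called higher in IgG than in input, and only 6 genes of the domain were tested between CPEB1 IP and input. Genes can enter a test through their IgG counts alone, so these 2 lower calls are not read as a result. Cd81, a tetraspanin membrane protein, had 452 and 476 CPM in the CPEB1 IP libraries, 257 and 251 in IgG, and 667 and 736 in input (CPEB1 IP against IgG 0.81, SE 0.10, edgeR adjusted p = 5.75e-06). Nap1l4 was at 0.58 (SE 0.12, edgeR adjusted p = 6.98e-04). Of 11 tested neighbours of Malat1 and Neat1 2 were higher (Frmd8 and Ltbp3), 1 lower (Kcnk7) and 8 not called, with the share higher near that of all genes. Kcnk7 was also called higher in IgG than in input, so the same limit holds for it. Ltbp3, which binds latent TGF-beta, was at 0.47 (SE 0.12, edgeR adjusted p = 0.00436). A further list held genes for RNase P, RNase Z and RNA methylation factors. Among 12 tested genes of this list, 2 were higher (Elac2, the tRNA 3′ processing enzyme RNase Z, and Rpp14, a subunit of RNase P) and 0 lower. The share higher was near that of all tested genes. At an unadjusted p under 0.05 by edgeR 0 of them were lower, and DESeq2 called 0 lower. Elac2 was at 0.52 (SE 0.17, edgeR adjusted p = 0.0190).

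Gene types were compared among abundant genes, those with a mean of at least 100 counts over the 6 libraries, since low-count genes can enter the test through their IgG counts alone. These classes were set up after values were seen. Of 28 other lincRNA or antisense genes 17 were lower and 3 higher in CPEB1 IP than in IgG, with a median log2 fold change of -0.57. Of 5003 protein-coding genes 341 were lower and 1600 higher, with a median of 0.21. With the FPKM totals the first class had 8 lower and 11 higher (median 0.24) and the second 18 lower and 4672 higher (median 1.02). The difference between the types was not tested.

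Genes that, like the 3 lncRNAs, are annotated as 1 exon interval of at least 5000 bases were also compared at that abundance. The 4 that are not protein-coding were all lower in CPEB1 IP than in IgG, namely 4632427E13Rik at -0.86, Gm37899 at -1.30, Gm38211 at -1.51 and 9330162G02Rik at -1.62. Of the 10 that are protein-coding 0 were lower and 1 was higher, Purb at 0.28 (edgeR adjusted p = 0.0432), with a median of 0.17. At an unadjusted p under 0.05 by edgeR 0 of these 10 were lower, and by DESeq2 0 were. With the FPKM totals all 10 were called higher (median 0.98), with DESeq2 3 were and without a filter 5 were. Purb was not called with a replicate block, in 1 joint fit or with the counts on genes as library size. With the FPKM totals, with DESeq2, without a filter and without CPEB1 IP replicate 2, 3 of the 4 noncoding genes were called lower, 4632427E13Rik being the exception.

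The profile most like each lncRNA over the 6 libraries was sought among the 11078 genes tested in all 3 comparisons, as the smallest distance between centred log2 CPM values. For Malat1 these were Nprl3, Slc25a16, Gm43361, Slc18a2 and Matn4 (distances 0.236 to 0.261). For Neat1 they were Gm37621, Gm19078, Rpl5-ps2, Stab2 and Capn12 (0.211 to 0.332). Gm19078 and Rpl5-ps2 are processed pseudogenes, whose reads can be shared with the parent gene. For Kcnq1ot1 they were Gm37663, Gm43462, Plekha7, Gm37728 and Jph3 (0.277 to 0.382). All but Gm43361, Matn4 and Gm37728 stayed at or below 44.8 CPM in every library, where counting error adds to the distance. The lncRNAs were not each other's nearest genes. Neat1 was number 485 in likeness to Malat1 and number 211 to Kcnq1ot1, and Kcnq1ot1 was number 3472 to Malat1.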

How the data were processed

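Satellite cell RNA from 6 libraries (3 groups of 2) was examined as deposited. Per the study's methods and the labels, RNA was amplified with an oligo-dT SMART-seq2 protocol, sequenced as 75 nt pairs, aligned to mm10 with HISAT 2.1.0, sorted with Samtools 1.9 and counted per gene with featureCounts 1.5.1. The authors deposited raw counts per gene, and FPKM per gene, in which counts are divided by gene length and by a library total larger than the counts on genes, whose make-up is not stated. The annotation release, the strand setting and the treatment of multiply mapped or doubly assigned reads are not given in the sources used here. The submitters' processing notes also name StringTie.

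Counts were tested between groups with edgeR 4.0.16 (quasi-likelihood test, filterByExpr, TMM, Benjamini-Hochberg over all tested genes, threshold 0.05) in R 4.3.3. CPM for levels used TMM factors over all 6 libraries. FPKM ratios used a pseudocount of 1. On simulated data the CPEB1 IP and IgG fit recovered 73 of 100 genes changed by a log2 fold of 1 and 96 of 100 changed by 2, with 16 false calls. The CPEB1 IP and input fit recovered 79 and 98, with 11 false calls, and the IgG and input fit 63 and 92, with 6. Each simulation changed 200 genes in random directions, so it cannot show how the fits behave under the shifts between scalings described above. Alternatives were DESeq2 1.42.0, other scalings and filters, a replicate block, 1 joint fit and leaving out each library. Same-numbered libraries did not deviate together (correlations -0.000348, -0.0241 and 0.0288), so the fits were unpaired. The labels call the libraries biological replicates, and the study describes separate experiments.

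The lncRNAs and the gene lists were chosen with earlier results of these data known. Genes were named as follows: the 3 lncRNAs, the 4 genes of each list with the highest mean CPM where described, genes inside the lncRNA spans, the 5 most alike profiles, and genes behind small counts of calls. A result of the paraspeckle protein list is not reported here. Sequences came from GENCODE M21 transcripts with the same spans.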

Additional observations from a re-analysis of the deposited data

How the results depend on the processing

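In CPEB1 IP against IgG, Malat1, Neat1 and Kcnq1ot1 were lower and past the threshold under each alternative run. The ranges when 1 library was left out were -1.48 to -1.11 for Malat1, -1.71 to -1.53 for Neat1 and -1.38 to -1.31 for Kcnq1ot1, and with a replicate block the values were -1.32, -1.67 and -1.38. In CPEB1 IP against input, the ranges were -0.75 to -0.40 for Malat1, -0.66 to 0.19 for Neat1 and 0.31 to 0.92 for Kcnq1ot1, and the block gave -0.56, -0.22 and 0.63. Kcnq1ot1 fell below the threshold with FPKM totals (0.42). In IgG against input, the ranges were 0.44 to 0.85, 0.89 to 1.78 and 1.56 to 2.22, and the block gave 0.64, 1.33 and 1.89. FPKM totals turned Malat1 to -0.24 and left Neat1 at 0.41. The block changed no call of the 3 lncRNAs. The study took each IP with the IgG of the same experiment, but libraries of the same number did not deviate together here.

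The number of genes called went from 4044 to 7733 with FPKM totals in CPEB1 IP against IgG, from 3990 to 2420 with DESeq2 in CPEB1 IP against input, and from 5287 to 2790 with DESeq2 in IgG against input. Leaving out 1 library gave 1731 to 3533, 2043 to 4993 and 3064 to 4570 calls. The block gave 3970, 3741 and 5458. Calls higher in CPEB1 IP than input were 51.9% of all calls, and 30.7% with FPKM totals. The cause of these changes was not tested.

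With TMM library sizes, the FPKM log2 ratios in experiments 1 and 2 were -0.999 and -1.51 for Malat1, -1.59 and -1.53 for Neat1, and -1.11 and -1.15 for Kcnq1ot1. With a pseudocount of 5 they were -0.77 and -0.63 for Neat1 and -0.24 and -0.22 for Kcnq1ot1, and with 0.1 they were -0.57 and -0.54 for Kcnq1ot1. Crossing the pairs gave -0.70 and -0.95 for Neat1 and -0.40 and -0.47 for Kcnq1ot1. The log2 ratio of Malat1 to Kcnq1ot1 in CPEB1 IP against IgG was 0.05 and ranged from -0.10 to 0.20 when 1 library was left out, and its sign is not determined. FPKM totals also turned Gas5 to 0.13, Snhg1 to 0.012, Pvt1 to 0.49 and Son to 0.49 in CPEB1 IP against IgG, and Airn to -0.57 in IgG against input. Without a filter Pvt1 was at 0.085 and Son at 0.081. Meg3 in IgG against input was at -0.15 and ranged from -0.59 to 0.49 (without input replicate 1) when 1 library was left out.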
